A study of Homo sapiens with 32 samples.

Results

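Genes that tumour cells can use to hold back immune attack are described here by how fast their mRNAs decayed. The 10 genes are PDCD1LG2, CD274, CD276, CD47, PVR, NECTIN2, CD55, CD59, CD46 and LGALS9. They were picked by name as checkpoint, "don't eat me" and complement-shield genes, and the choice was made with their measured rates in view, above all the very high rate of PDCD1LG2 in MDA-LM2 cells. Rates in both lines were analysed for 9 of the 10 genes, through 19 of 12966 RefSeq transcripts, which is 9 of 10827 genes; LGALS9 was not analysed here. The study set MDA-LM2 cells against MDA-MB-231 cells. MDA-MB-231 is an established human breast cancer line, and MDA-LM2 is a population selected from it in mice for growth in the lung, so the pair stands for 1 parental line and 1 selection. Cells of both lines were given 4-thiouridine (4sU), a uridine analog that marks newly made RNA, for 2 h, and were then moved to medium with excess uridine. Labelled RNA was captured 0, 2, 4 and 7 h later and sequenced, in 4 replicate series for each line and 32 libraries in all. There were 4 MDA-LM2 series and 4 MDA-MB-231 series, and no agent other than 4sU and uridine was given to either line.

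Several of these proteins act by engaging a receptor on an immune cell. PD-L1 and PD-L2, the products of CD274 and PDCD1LG2, bind PD-1 on T cells and dampen their activation, CD47 binds SIRPα on macrophages and blocks engulfment, and the nectin family proteins PVR and NECTIN2 bind TIGIT and the activating receptor DNAM-1 on T and NK cells. CD55, CD59 and CD46 act on the cell's own surface against complement. AU-rich elements in the 3′ UTR, read by proteins of the ZFP36 family among others, are known for speeding the decay of CD274 mRNA in tumour cells.

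The deposited values are 1 decay rate per transcript and series, in which a larger value means faster loss of labelled RNA. The sources used here give neither their log base nor the handling of zero reads, so a rate stays in the deposited unit and no half-life is derived from it. Read depth behind a rate is unknown. Libraries were made from whole cultures, in which fewer cells making a transcript and less of it per cell cannot be told apart. Most rates lay within 1 of 0. Rates beyond 1 made up 4.24% ± 0.96 of all transcript rates per MDA-LM2 series and 18.3% ± 1.26 per MDA-MB-231 series (SD, n = 4 each). The median rate over genes ranged from 0.155 to 0.179 in MDA-LM2 series and from 0.176 to 0.211 in MDA-MB-231 series. The series are called 1_1, 1_2, 2_1 and 2_2 after their titles. Within a line, series with the same second number deviated together, so differences are also given separately for series ending in 1 and in 2. Of 8 immune cell markers, only CD68 and KLRD1 had rates in both tables, and 7 of 8 epithelial and mesenchymal markers did, the exception being the epithelial cadherin CDH1; the tables hold rates and not levels.

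PDCD1LG2, which encodes PD-L2, had the highest gene rates of the ligands in MDA-LM2 cells and rates within 1 of 0 in the parental line. The rate of its transcript NM_025239 was 9.36, 9.25, 9.33 and 9.28 in MDA-LM2 series 1_1, 1_2, 2_1 and 2_2, against 0.374, 0.238, 0.358 and 0.277 in the same-named MDA-MB-231 series. All 4 MDA-LM2 rates lay far above all 4 MDA-MB-231 rates, and the series of each line sat close together. The mean rate was 9.31 ± 0.051 in MDA-LM2 cells and 0.312 ± 0.0651 in MDA-MB-231 cells (SD, n = 4 each), a difference of 8.99, and it was 8.98 over the series ending in 1 and 9.01 over those ending in 2. In MDA-MB-231 cells its mean rate stood at percentile 63.0 of all genes. These values chose the gene and are a description. Only 2 of 12966 transcripts, those of PDCD1LG2 and of the mitochondrial methionyl-tRNA synthetase gene MARS2, had all 4 MDA-LM2 rates above 8 with all 4 MDA-MB-231 rates within 1 of 0. The reverse pattern was held by 165 transcripts, none of them from the ligands.

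CD274, which encodes PD-L1 and lies next to PDCD1LG2 on chromosome 9, differed the other way. The rate of NM_014143 was 0.462, 0.397, 0.433 and 0.412 in MDA-LM2 series 1_1, 1_2, 2_1 and 2_2, against 0.794, 0.486, 9.69 and 9.67 in the same MDA-MB-231 series. The MDA-LM2 rates were tight and lay below every MDA-MB-231 rate, while the MDA-MB-231 rates split into a low pair with first number 1 and a very high pair with first number 2. The mean of 5.16 ± 5.22 in MDA-MB-231 cells therefore falls where no series lies, beside 0.426 ± 0.0282 in MDA-LM2 cells (SD, n = 4 each). The difference was -4.73 over all series, -4.79 over series ending in 1 and -4.67 over those ending in 2. Each second number holds 1 low and 1 very high MDA-MB-231 rate, so this split cannot show whether the size of the difference is stable. By first number it was not: MDA-MB-231 rates were 0.794 and 0.486 in series 1_1 and 1_2, near the MDA-LM2 rates. They were 9.69 and 9.67 in series 2_1 and 2_2. In the MDA-LM2 line, where all 4 rates were within 1 of 0, the mean rate of CD274 still stood at percentile 90.0 of all genes, so the PD-L1 message was among the faster ones of that line. Its percentile in MDA-MB-231 cells was 95.2.

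**Figure D1:**
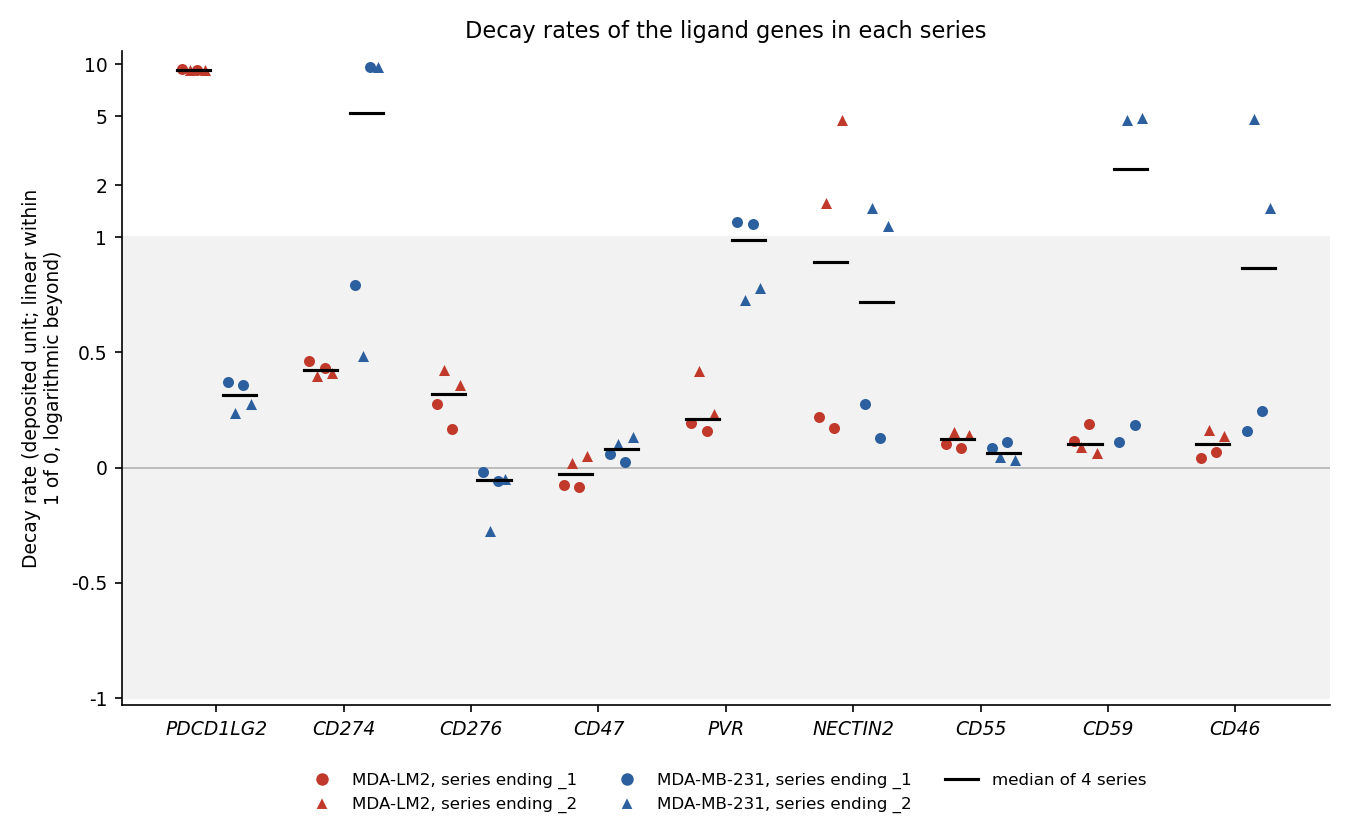
Decay rate (deposited unit, linear within 1 of 0, shaded, and logarithmic beyond) of the 9 ligand genes in each of the 4 MDA-LM2 series (left, red) and 4 MDA-MB-231 series (right, blue), with circles for series ending in 1, triangles for series ending in 2 and a bar at the median of 4 series. PDCD1LG2 lies between 9.25 and 9.36 in MDA-LM2 series and between 0.238 and 0.374 in MDA-MB-231 series, while CD274 passes 9 in MDA-MB-231 series 2_1 and 2_2 only.

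The PD-1 ligand messages also differ in their 3′ UTRs, read here from GENCODE 29 transcripts on GRCh38. A 3′ UTR here and below is that of the model matched to a RefSeq identifier, the longest where several matched. Whether a model ends where the RefSeq transcript behind the rates ends was not tested. CD274 has a 3′ UTR of 2685 bases with 14 copies of the AU-rich pentamer ATTTA and 3 copies of the longer TTATTTA, searched on the transcript strand with overlapping copies counted; each TTATTTA also holds 1 ATTTA. Its 3 TTATTTA windows are shown, with the motif in capitals, because CD274 is the ligand for which this class of element is best known, and the sole PDCD1LG2 pentamer is set beside them.
CD274 3′ UTR position 695: ggatgtcacctTTATTTAacccattaatac
CD274 3′ UTR position 1686: ctttgctatttTTATTTAttttagtgtttc
CD274 3′ UTR position 2609: ataaaatattcTTATTTAttttgttacttg
PDCD1LG2 3′ UTR position 570: ttaacagagagcATTTAaatatacactaag
PDCD1LG2 has 1295 bases of 3′ UTR with 1 ATTTA and no TTATTTA. Among the 11693 transcripts with a 3′ UTR sequence, 29.8% hold TTATTTA and 70.2% hold ATTTA. Among 1339 transcripts with 3′ UTRs within 20% of the length of CD274's, the median is 6 pentamers and 94.0% have fewer than CD274. Among 1481 transcripts of about the length of PDCD1LG2's, the median is 2 pentamers and 15.7% have fewer. A match is a description of the letters and shows no bound protein.

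Rates of 4 neighbouring genes of the pair on chromosome 9 could be set beside them. PLGRKT, a plasminogen receptor gene, averaged -0.0377 ± 0.138 in MDA-LM2 cells and 2.62 ± 4.66 in MDA-MB-231 cells. RIC1, a subunit of a Rab6 exchange factor, averaged 0.569 ± 0.563 in MDA-LM2 cells and 0.0966 ± 0.0768 in MDA-MB-231 cells. ERMP1, a metallopeptidase of the endoplasmic reticulum, averaged 0.124 ± 0.0366 in MDA-LM2 cells and 0.325 ± 0.186 in MDA-MB-231 cells, and BRD10 averaged 0.235 ± 0.028 in MDA-LM2 cells and 0.117 ± 0.0273 in MDA-MB-231 cells (SD, n = 4 each throughout). None of the 4 had the very high MDA-LM2 mean of PDCD1LG2. PLGRKT had a low mean in MDA-LM2 cells and a high mean with a wide spread in MDA-MB-231 cells. Over all transcripts, 33.1% had at least 1 rate beyond 1 in MDA-MB-231 cells. By Euclidean distance over the 8 series, the gene nearest to PDCD1LG2 was MARS2 at 0.238, and the next were DIP2C-AS1 at 8.75, SYNRG at 10.8, NLRP3 at 11.4 and MEPCE at 11.8, so 1 gene was close and no other. CD274 had closer company. CPT2, a mitochondrial carnitine transferase, lay at 0.278, LRRC24 at 0.387, PIN4P1 at 0.452, the platelet receptor subunit GP1BA at 0.527 and the phosphomannomutase PMM1 at 0.591.

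CD276 encodes B7-H3, a B7 family protein common on solid tumours that inhibits T cells through a receptor not agreed upon. Its rate was 0.276, 0.425, 0.169 and 0.359 in MDA-LM2 series 1_1, 1_2, 2_1 and 2_2, against -0.0183, -0.274, -0.0556 and -0.0481 in the MDA-MB-231 series. Every MDA-LM2 rate was positive and above every MDA-MB-231 rate, and every MDA-MB-231 rate was below 0. The mean was 0.307 ± 0.11 in MDA-LM2 cells and -0.0989 ± 0.118 in MDA-MB-231 cells (SD, n = 4 each), and the difference of 0.406 was 0.26 over series ending in 1 and 0.553 over series ending in 2. Of the 3 ligand genes with no rate beyond 1 in either line, CD276, CD47 and CD55, CD276 was the only one whose groups did not overlap. Its place among all genes was percentile 80.6 in MDA-LM2 cells and 2.6 in MDA-MB-231 cells, so B7-H3 mRNA was among the slower ones of the parental line only. Its 3′ UTR of 1553 bases holds 1 ATTTA, at position 1485, and no TTATTTA.
CD276 3′ UTR position 1485: tgaggacttctaATTTAaatgtgggactcg
Of 1556 transcripts of similar 3′ UTR length, 33.4% hold TTATTTA and the median has 3 pentamers.

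CD47, the SIRPα ligand, had rates close to 0 in both lines. Its gene rate was -0.0739, 0.0213, -0.082 and 0.0505 in MDA-LM2 series 1_1, 1_2, 2_1 and 2_2, against 0.0611, 0.104, 0.0266 and 0.135 in the MDA-MB-231 series. The groups overlapped, with the MDA-LM2 rates on the low side. The means were -0.021 ± 0.0669 in MDA-LM2 cells and 0.0817 ± 0.0477 in MDA-MB-231 cells (SD, n = 4 each), at percentiles 4.57 and 13.4 of all genes in MDA-LM2 and MDA-MB-231 cells. The difference was -0.103, and it was -0.122 over series ending in 1 and -0.0836 over series ending in 2. Both CD47 transcripts measured stayed within 1 of 0 in all 8 series although their 3′ UTRs differ widely. NM_001777 has 207 bases of 3′ UTR and 1 pentamer, and its rates ran from -0.146 to 0.136 in MDA-LM2 series and from -0.177 to 0.255 in MDA-MB-231 series. NM_198793 has 4190 bases, 19 pentamers and 3 TTATTTA, more pentamers than 91.5% of 915 transcripts of similar 3′ UTR length, and its rates ran from -0.039 to -0.00148 in MDA-LM2 series and from -0.0472 to 0.23 in MDA-MB-231 series. The rate ranges of both transcripts overlapped in both lines. The TTATTTA windows of the NM_198793 model and the pentamer of the NM_001777 model are given for comparison with those of CD274.
CD47 NM_198793 3′ UTR position 2433: tccattcagttTTATTTAttgtgtgttctc
CD47 NM_198793 3′ UTR position 3618: taaatggagcaTTATTTAcaaaaagccatt
CD47 NM_198793 3′ UTR position 3911: aaggtacttttTTATTTAaaaaaaaacata
CD47 NM_001777 3′ UTR position 182: aaagcagctgtaATTTAgttaataaaataa

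PVR (CD155), a ligand of TIGIT and DNAM-1, had lower gene rates in MDA-LM2 cells. The median over its 4 transcripts was 0.192, 0.418, 0.161 and 0.233 in MDA-LM2 series 1_1, 1_2, 2_1 and 2_2, against 1.23, 0.728, 1.2 and 0.779 in the MDA-MB-231 series. The groups did not overlap, and the mean was 0.251 ± 0.115 in MDA-LM2 cells and 0.984 ± 0.267 in MDA-MB-231 cells (SD, n = 4 each), a difference of -0.733 that was -1.04 over series ending in 1 and -0.428 over series ending in 2. With the mean over transcripts in place of the median, the difference was -2.12. The transcripts behind the gene value differed from each other. NM_006505 had rates of 0.166, 2.65, 0.178 and -0.104 in MDA-LM2 series and of 2.27, 9.57, 2.19 and 9.32 in MDA-MB-231 series, and NM_001135769 had 0.272, 0.544, 0.143 and 0.262 in MDA-LM2 series and 3.06, 0.0951, 9.72 and 0.122 in MDA-MB-231 series. The high rates of those transcripts sat in MDA-MB-231 series that share a second number, ending in 2 for the higher pair of NM_006505 and in 1 for NM_001135769. NM_001135768 passed 1 in MDA-MB-231 series 1_2 and 2_2 alone, at 1.26 and 1.43. NM_001135770, whose matched model has the shortest PVR 3′ UTR at 165 bases, went the other way and without any extreme rate. It had 0.218, 0.291, 0.234 and 0.436 in MDA-LM2 series and 0.181, 0.195, 0.212 and 0.132 in MDA-MB-231 series, a difference of 0.115 with no overlap. Reads shared by such transcripts are divided between them when transcripts are quantified, and the part of that division in these values was not tested. Both 3′ UTR forms of PVR hold 1 TTATTTA, close to the transcript end; the 1772-base form of the other transcripts has it at position 1755.
PVR 1772-base 3′ UTR position 1755: ctcattaaagcTTATTTAttgtacctcca
PVR NM_001135770 3′ UTR position 149: atttacaaataTTATTTAcagagtggga

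NECTIN2 (CD112), the related ligand of TIGIT, PVRIG and DNAM-1, gave no separation of the lines. Its gene rate was 0.218, 1.57, 0.171 and 4.79 in MDA-LM2 series 1_1, 1_2, 2_1 and 2_2, against 0.275, 1.47, 0.128 and 1.16 in the MDA-MB-231 series. In both lines the series ending in 2 were high and those ending in 1 were low. The mean was 1.69 ± 2.17 in MDA-LM2 cells and 0.758 ± 0.657 in MDA-MB-231 cells (SD, n = 4 each), and the difference of 0.93 was -0.00718 over series ending in 1 and 1.87 over series ending in 2. It turned to -0.106 without MDA-LM2 series 2_2 and to -0.00359 with rates limited to -1 to 1. In MDA-LM2 cells the high values came from NM_002856, at 2.98 in series 1_2 and 9.45 in series 2_2, while NM_001042724 stayed between 0.142 and 0.33 there. In MDA-MB-231 cells NM_001042724 reached 2.85 in series 1_2 and NM_002856 reached 2.07 in series 2_2. The 321-base 3′ UTR of NM_002856 holds no ATTTA and the 849-base 3′ UTR of NM_001042724 holds 2.

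**Figure D2:**
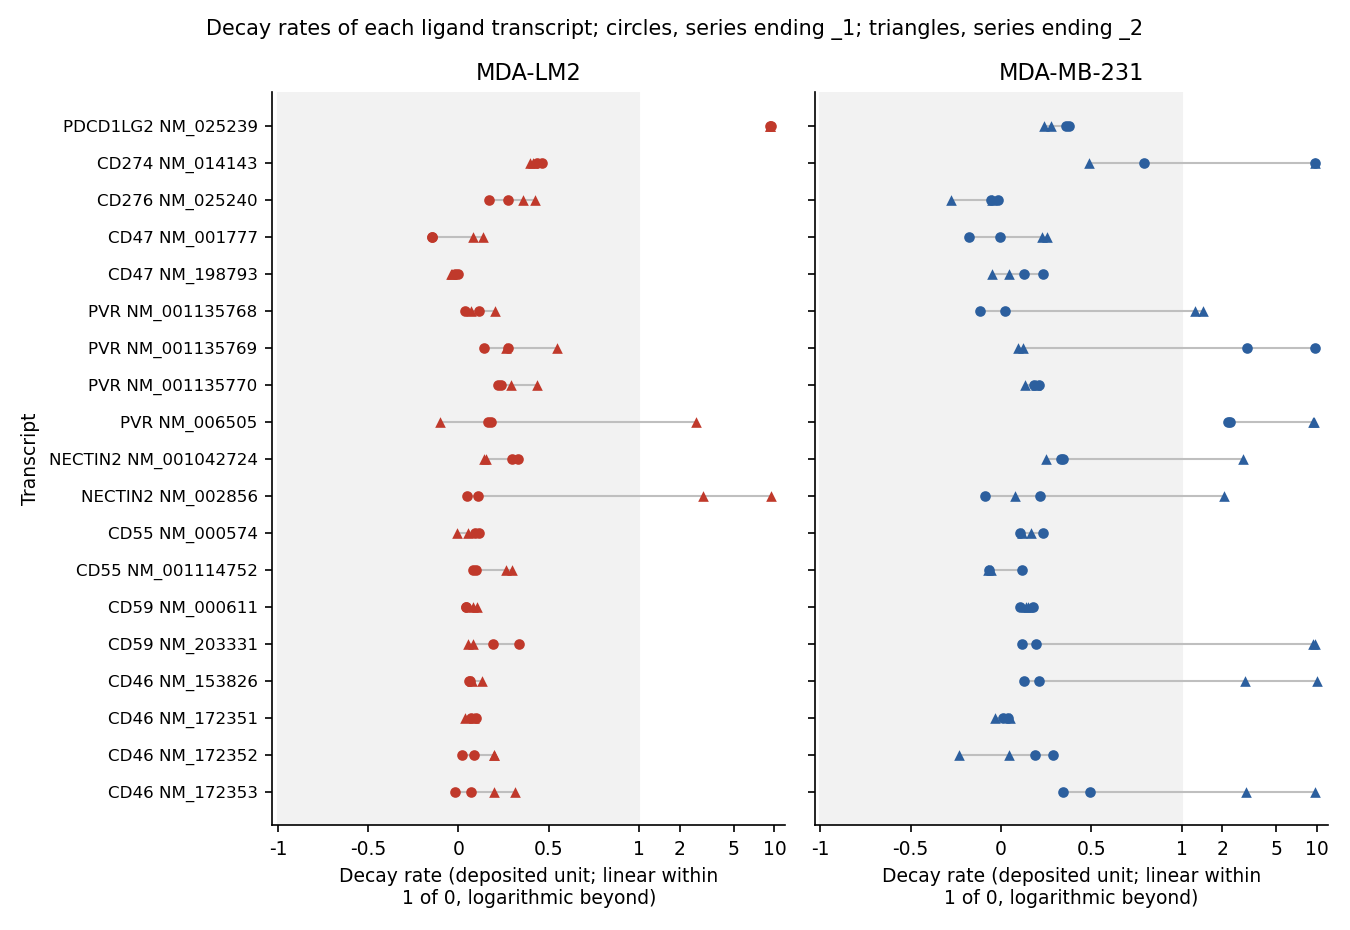
Decay rate (deposited unit, linear within 1 of 0, shaded, and logarithmic beyond) of each of the 19 ligand transcripts in the MDA-LM2 series (left panel) and the MDA-MB-231 series (right panel), with circles for series ending in 1, triangles for series ending in 2 and a line over the range of the 4 series. Only PDCD1LG2 has 4 rates above 8 in a line; the CD59 and CD46 rates beyond 1 are all in MDA-MB-231 cells.

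CD55, CD59 and CD46 protect the cell that carries them from complement: CD55 speeds the decay of convertases, CD46 is the cofactor for cleavage of deposited C3b and C4b, and CD59 blocks the membrane attack complex. In MDA-LM2 cells all 3 had low gene rates in every series. CD55 was the only one of the 3 with no rate beyond 1 in either line. Its gene rate was 0.104, 0.157, 0.0867 and 0.144 in MDA-LM2 series 1_1, 1_2, 2_1 and 2_2, against 0.0856, 0.0448, 0.112 and 0.0325 in the MDA-MB-231 series. The groups overlapped, with means of 0.123 ± 0.0332 in MDA-LM2 cells and 0.0687 ± 0.0367 in MDA-MB-231 cells (SD, n = 4 each) and a difference of 0.0542. That difference was -0.00371 over series ending in 1 and 0.112 over series ending in 2. Its transcripts differed in opposite directions, by -0.0939 for NM_000574 and by 0.202 for NM_001114752. NM_001114752 had rates of 0.0948, 0.261, 0.083 and 0.298 in MDA-LM2 series and of -0.0639, -0.0743, 0.119 and -0.0535 in MDA-MB-231 series, where only series 2_1 reached the MDA-LM2 range. CD55 carries AU-rich letters densely, with 9 pentamers in the 1356-base 3′ UTR of NM_000574, more than 95.9% of 1527 transcripts of similar length, and 2 TTATTTA that lie 10 bases apart. These windows are printed because they are dense in a message whose mean rate was below the median gene rate in both lines.
CD55 NM_000574 3′ UTR position 768: ttttgtaatatTTATTTAtatttatttatg
CD55 NM_000574 3′ UTR position 778: tttatttatatTTATTTAtgacagtgaaca

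CD59 and CD46 had their very high rates in MDA-MB-231 series ending in 2. The gene rate of CD59 was 0.116, 0.0908, 0.189 and 0.0652 in MDA-LM2 series 1_1, 1_2, 2_1 and 2_2, against 0.112, 4.76, 0.185 and 4.9 in the MDA-MB-231 series. Its difference of -2.37 was 0.00345 over series ending in 1 and -4.75 over series ending in 2. The high MDA-MB-231 values came from NM_203331, at 9.36 in series 1_2 and 9.65 in series 2_2, a transcript model with a 130-base 3′ UTR and no ATTTA. NM_000611, with 7116 bases and 10 pentamers, had 0.0424, 0.101, 0.0404 and 0.0792 in MDA-LM2 series and 0.106, 0.149, 0.176 and 0.136 in MDA-MB-231 series, so the groups did not overlap and the difference was -0.0763. The gene rate of CD46 was 0.0437, 0.163, 0.0702 and 0.139 in MDA-LM2 series, against 0.16, 4.81, 0.248 and 1.48 in the MDA-MB-231 series. The groups overlapped, and the difference of -1.57 was -0.147 over series ending in 1 and -3.0 over series ending in 2. Without MDA-MB-231 series 1_2 the CD46 difference was -0.527, and without MDA-MB-231 series 2_2 that of CD59 was -1.57. Its high rates came from NM_153826, at 10.0 and 2.92, and NM_172353, at 9.65 and 3.01, in MDA-MB-231 series 1_2 and 2_2. The other CD46 transcripts, NM_172351 and NM_172352, stayed within 1 of 0 in all series. Their differences of 0.0551 and 0.0541, with overlapping groups, went the other way from that of the gene. The 4 CD46 transcripts have 3′ UTRs of 1922 or 2036 bases with 5 pentamers each.

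Rates beyond 1 were spread unevenly over these transcripts. In MDA-LM2 cells 7 of the 76 ligand rates, or 9.21%, were beyond 1, and 4 of them were those of PDCD1LG2. In MDA-MB-231 cells 18 of 76, or 23.7%, were beyond 1, and no ligand rate in either line was below -1. Transcripts with any such rate numbered 3 of 19 in MDA-LM2 cells, where 10.2% of all transcripts had one, and 9 of 19 in MDA-MB-231 cells, where 33.1% had one. Of the 6 ligand transcripts with exactly 2 such rates in MDA-MB-231 cells, 5 had them in series that share the second number and 1, CD274, in series that share the first. Over all transcripts, 80.9% of 1531 with exactly 2 such rates had them in series sharing the second number and 10.6% in series sharing the first, so CD274 stood with the smaller share. All 8 rates were within 1 of 0 for 9 of 19 ligand transcripts, or 47.4%, beside 65.5% of all transcripts. With rates limited to -1 to 1, the difference between MDA-LM2 and MDA-MB-231 cells was 0.688 for PDCD1LG2, -0.394 for CD274, -0.626 for PVR, -0.459 for CD59 and -0.498 for CD46. Each kept its direction at a smaller size.

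The order of the ligands was not the same in both lines. By median rate in MDA-LM2 cells, CD47 was lowest, at -0.0263, and its highest series, at 0.0505, lay below the lowest of CD59 and of CD55 but above the lowest of CD46, at 0.0437. CD59, CD46 and CD55 came next, then PVR, CD276, CD274 and NECTIN2. Neighbours among these 7 overlapped, apart from CD55 and PVR, whose ranges ended at 0.157 and began at 0.161. PDCD1LG2 stood above all. In MDA-MB-231 cells CD276 was lowest, CD55 and CD47 followed above it without differing beyond their spread, and PDCD1LG2, NECTIN2, CD46, PVR, CD59 and CD274 came next by median rate, each overlapping its neighbour. The places of CD46 and CD59 in the MDA-MB-231 order rest on series ending in 2, since in series 1_1 and 2_1 their gene rates were below those of PDCD1LG2. These orders are of rates, not of mRNA levels.

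Across the lines, 5 of the 9 ligand genes had lower mean rates and 4 had higher mean rates in MDA-LM2 cells. Their median difference was -0.103, beside -0.0539 over all 10827 genes, of which 67.0% were lower. Among genes with all rates within 1 of 0, the median difference was 0.0542 for the 3 ligands CD276, CD47 and CD55 and -0.0169 for all 7223 such genes. All 4 MDA-LM2 rates lay below all 4 MDA-MB-231 rates for CD274 and PVR, as for 17.6% of all genes, and above them for PDCD1LG2 and CD276, as for 5.62% of all genes. In a limma fit over all genes with Benjamini-Hochberg adjustment at 0.05, 1 ligand, PVR, was called slower in MDA-LM2 cells, where 6.71% of all genes were. PDCD1LG2 and CD276 were called faster, where 2.0% were. CD274 was not called in this fit. With the correlation between series that share a second number estimated in the fit, no ligand was called slower, where 3.19% of all genes were, and PDCD1LG2 alone was called faster, where 0.333% were. The call of CD276 ended without MDA-LM2 series 1_1, 1_2 or 2_2, and that of PVR without MDA-LM2 series 1_1, 2_1 or 2_2. The genes were chosen on this contrast, so these counts are a description and no p-value is given for them. In the authors' deposited table of differential stability scores, 7 of the 19 ligand transcripts, or 36.8%, had a negative score, which stands for faster decay in MDA-LM2 cells, beside 33.8% of all transcripts.

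**Figure D3:**
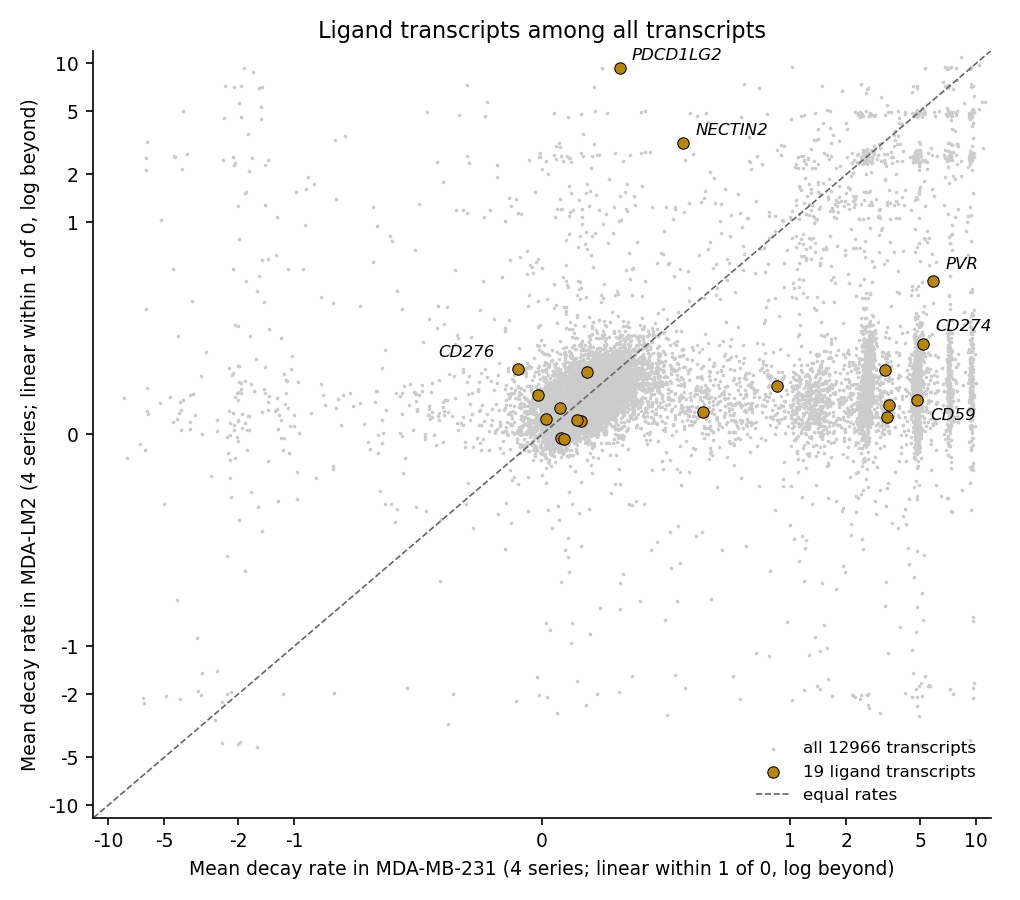
Mean decay rate over 4 MDA-LM2 series (vertical axis) against the mean over 4 MDA-MB-231 series (horizontal axis), both in the deposited unit and linear within 1 of 0 and logarithmic beyond, for all 12966 transcripts in grey and the 19 ligand transcripts in colour, with a dashed line at equal rates. PDCD1LG2 stands at 9.31 in MDA-LM2 cells and 0.312 in MDA-MB-231 cells, far above the line, and CD274 at 0.426 in MDA-LM2 cells and 5.16 in MDA-MB-231 cells, below it.

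Genes that act beside the ligands were read from 6 lists of 114 genes, of which 67 had rates. By the same limma fit 8 of the 67 were called slower in MDA-LM2 cells and 1 faster, and with the estimated correlation 3 slower and 0 faster. At an unadjusted limma p under 0.05, 14 were slower and 4 faster (13 and 2 with the estimated correlation). Over all genes the shares were 19.1% slower and 7.08% faster, and 11.5% and 4.29% with the estimated correlation. The unequal-variance test called 7 list genes slower and 1 faster, beside 4.75% and 1.09% of all genes. The median difference over the 67 was -0.0653, with 44 lower, and it was -0.0252 over the 42 with all rates within 1 of 0. Over all genes it was -0.0539, with 67.0% lower, and -0.0169 over those with all rates within 1 of 0. The shares of all genes called in the limma fits are 6.71% slower and 2.0% faster, and 3.19% and 0.333% with the estimated correlation. Of 21 measured regulators of PD-L1 and CD47, 15 had lower mean rates in MDA-LM2 cells, beside the 67.0% of all genes. Of these regulators limma called 2 slower and 1 faster. CMTM6, which keeps PD-L1 at the cell surface, averaged 0.0584 ± 0.0204 in MDA-LM2 cells and 0.213 ± 0.073 in MDA-MB-231 cells (SD, n = 4 each), with a limma adjusted p of 0.0484 and of 0.182 with the estimated correlation, in a range of 0.0108 to 0.182 over the alternatives. Its call ended in 7 of the 8 fits that left out a series, with limma adjusted p from 0.0571 to 0.136. ZFP36L1, a protein of the ZFP36 family that binds AU-rich elements, was the 1 gene of the lists called higher in MDA-LM2 cells, at 0.535 ± 0.0384 there and 0.328 ± 0.0479 in MDA-MB-231 cells (SD, n = 4 each). Its limma adjusted p was 0.0183, and it was 0.0652 with the estimated correlation and 0.0626, 0.0525 and 0.0591 without MDA-LM2 series 1_1, 1_2 and 2_1, in a range of 0.00954 to 0.104 over the alternatives.

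Antigen presentation genes are the counterpart of the inhibitory ligands, since T cells need peptide on class I molecules to act at all. Of 18 measured genes of this list, limma called 3 slower and 0 faster in MDA-LM2 cells, beside 6.71% and 2.0% of all genes. With the estimated correlation 1 was called slower, beside 3.19% of all genes. The median difference was -0.0759, beside -0.0539 over all genes, and 12 of the 18 had lower mean rates, beside 67.0% of all genes. At an unadjusted limma p under 0.05, 5 were slower and 2 faster, beside 19.1% and 7.08% of all genes. The unequal-variance test called 3 slower and 0 faster, beside 4.75% and 1.09%. NLRC5, the transactivator of class I genes, averaged 0.403 ± 0.0918 in MDA-LM2 cells and 9.2 ± 0.0643 in MDA-MB-231 cells, a difference of -8.8 with SE 0.539 and a limma adjusted p of 5.94e-05, and it was called in 16 of 16 alternatives (1.23e-10 to 0.0161), with a difference of -0.597 where rates were limited to -1 to 1. B2M, the class I light chain, averaged 0.00277 ± 0.0271 in MDA-LM2 cells and 0.118 ± 0.0308 in MDA-MB-231 cells, with a limma adjusted p of 0.0207 (0.111 with the estimated correlation, and 0.0152 to 0.119 over the alternatives). CALR, the chaperone calreticulin, averaged -0.0135 ± 0.0127 in MDA-LM2 cells and 0.0638 ± 0.0144 in MDA-MB-231 cells, with a limma adjusted p of 0.0141 (0.0786 with the estimated correlation, and 0.00782 to 0.118 over the alternatives). The means of B2M and CALR were thus below the median gene rate in both lines. B2M was not called without MDA-LM2 series 1_1, 2_1 or 2_2 (limma adjusted p 0.0746, 0.0733 and 0.0711), and CALR was not called without MDA-LM2 series 1_1 or 2_1 (0.06 and 0.0595).

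By limma, genes called in the remaining lists stand beside 6.71% of all genes called slower and 2.0% called faster. Counts of lower mean rates in these lists stand beside 67.0% of all genes. Of 13 measured other inhibitory ligands, 6 had lower mean rates in MDA-LM2 cells. Only CD24, a ligand of Siglec-10 on macrophages, was called by limma, as slower. CD24 averaged 0.0387 ± 0.0667 in MDA-LM2 cells and 0.282 ± 0.0741 in MDA-MB-231 cells (SD, n = 4 each). Its limma adjusted p was 0.0248, and 0.155 with the estimated correlation, in a range of 0.01 to 0.155 over the alternatives. Its call ended without any of MDA-LM2 series 1_1, 1_2 and 2_1 and MDA-MB-231 series 2_1 and 2_2 (limma adjusted p 0.0718, 0.0641, 0.08, 0.06 and 0.0559). The largest difference of that list was that of NECTIN1, a nectin adhesion molecule, at 4.69 ± 5.42 in MDA-LM2 cells and -0.232 ± 0.29 in MDA-MB-231 cells, with a limma adjusted p of 0.269. That mean rests on MDA-LM2 series 1_1 and 2_1, at 9.4 and 9.36, and the NECTIN1 difference of 4.92 was 0.732 with rates limited to -1 to 1. ICAM2, an adhesion ligand of the integrin LFA-1, was 1 of 3 measured co-stimulatory and adhesion genes and fell, at -0.166 ± 0.502 in MDA-LM2 cells and 9.33 ± 0.0775 in MDA-MB-231 cells, with a limma adjusted p of 0.000107 (3.08e-07 to 0.0204 over the alternatives). Its difference of -9.5 was -1.17 with rates limited to -1 to 1. None of 7 measured NK cell ligands and death receptors was called by limma or the unequal-variance test. Of the 7, 6 had lower mean rates in MDA-LM2 cells, with a median difference of -1.02. Over the 2 of them with all rates within 1 of 0, the median difference was 0.118. At an unadjusted limma p under 0.05, 0 were slower and 1 faster, beside 19.1% and 7.08% of all genes. The largest difference was that of ULBP3, a ligand of the activating receptor NKG2D, at 0.218 ± 0.171 in MDA-LM2 cells and 4.67 ± 5.49 in MDA-MB-231 cells, with a limma adjusted p of 0.293. The ULBP3 mean rests on MDA-MB-231 series 1_2 and 2_2, at 9.35 and 9.5, and its difference of -4.45 was -2.89 and -2.84 without them in turn and -0.238 with rates limited to -1 to 1. Of 5 measured complement genes, 3 had lower mean rates in MDA-LM2 cells, and C1QBP, a C1q-binding mitochondrial protein, was called slower. C1QBP averaged 0.0224 ± 0.00799 in MDA-LM2 cells and 0.125 ± 0.0243 in MDA-MB-231 cells, with a limma adjusted p of 0.00972 (0.0693 with the estimated correlation, and 0.00803 to 0.101 over the alternatives). Factor B, encoded by CFB, had the largest difference there, at 0.303 ± 0.0536 in MDA-LM2 cells and 4.79 ± 5.17 in MDA-MB-231 cells, with a limma adjusted p of 0.278. The CFB mean rests on MDA-MB-231 series 1_2 and 2_2, at 9.29 and 9.25, and its difference of -4.49 was -2.99 and -3.0 without them in turn and -0.354 with rates limited to -1 to 1.

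Pentamer number and rate can be set side by side for the ligand transcripts. CD47 NM_198793, with 19 pentamers, averaged -0.0235 in MDA-LM2 cells and 0.0887 in MDA-MB-231 cells. CD55 NM_000574, with 9, averaged 0.0616 in MDA-LM2 cells and 0.156 in MDA-MB-231 cells. CD274 holds 14 and averaged 0.426 in MDA-LM2 cells and 5.16 in MDA-MB-231 cells, where its rates split into a low and a very high pair. PDCD1LG2 holds 1 and averaged 9.31 in MDA-LM2 cells and 0.312 in MDA-MB-231 cells. CD59 NM_000611 holds 2 TTATTTA in 7116 bases, where 81.0% of 337 transcripts of similar length hold at least 1. Over all transcripts with every rate within 1 of 0, the 2506 with TTATTTA had median rates of 0.154 in MDA-LM2 cells and 0.165 in MDA-MB-231 cells, and the 5197 without it had 0.139 in MDA-LM2 cells and 0.153 in MDA-MB-231 cells. These are descriptions over transcripts that share libraries, with no test.

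**Figure D4:**
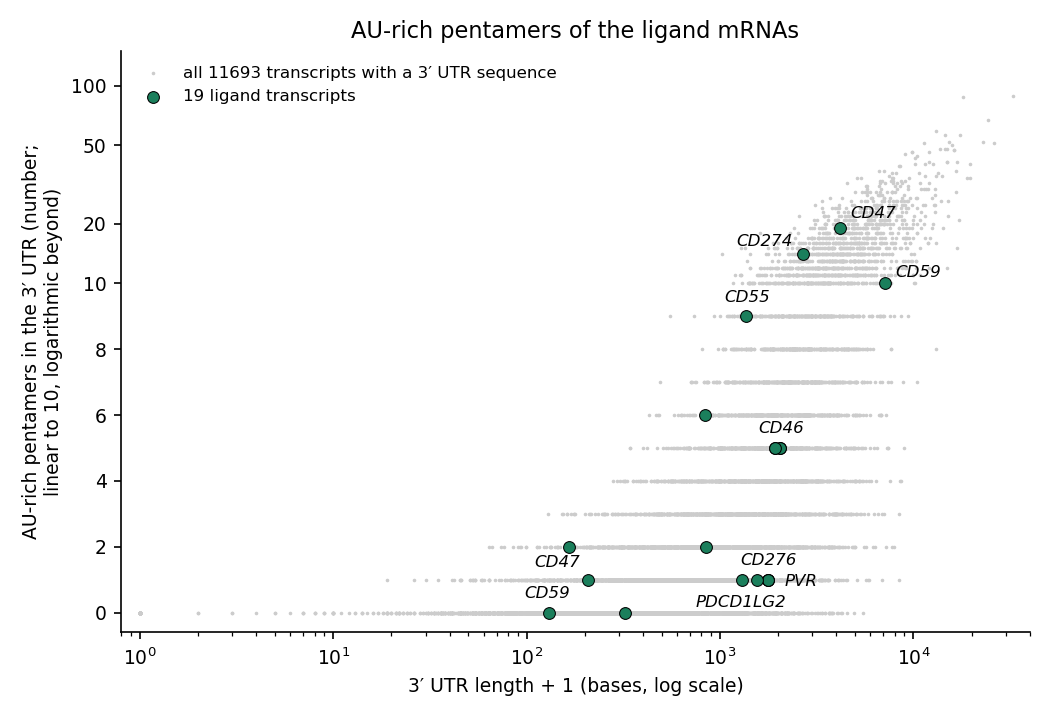
Number of ATTTA pentamers in the 3′ UTR (linear to 10, logarithmic beyond) against 3′ UTR length plus 1 base (log scale) for 11693 transcripts in grey and the 19 ligand transcripts in green, some of them labelled. CD274 with 14 and CD47 NM_198793 with 19 pentamers stand high, and PDCD1LG2 and CD276 hold 1 each.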

How the data were processed

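Labelled RNA of MDA-LM2 and MDA-MB-231 cells was extracted at 4 times of a chase and sequenced after ScriptSeq V2 library preparation, per the labels' protocols. The submitters' processing notes name TopHat, Cufflinks and the build hg18, without versions. The authors deposited 1 decay rate per RefSeq transcript and series for each line, in a unit not given in the sources used here, and 1 differential stability score per transcript. The sign of the deposited score was opposite to that of the difference in mean rate, MDA-LM2 minus MDA-MB-231, for 100% of transcripts.

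Series were grouped by the cell line in the labels. Whether the series are separate cultures is not stated, and the spread between series behind a p-value may be technical. In limma the spread used for a gene is also drawn towards a trend over all genes. A limma p-value therefore rests in part on other genes. For NLRC5 the limma adjusted p was 5.94e-05 with the variance trend and 1.23e-10 without it. RefSeq identifiers were matched to symbols through a RefSeq table (12644 of 12966) and GENCODE 29 (118), and 204 without a symbol were kept as genes of their own. A gene's rate is the median over its transcripts. Lines were compared over 10827 genes with limma 3.58.1 in R 4.3.3 (variance trend, two-sided, Benjamini-Hochberg adjustment), after a test on simulated data. The simulation drew independent noise for genes with all rates within 1 of 0. It therefore cannot speak for genes with very high rates or for correlated series. Other steps used Python 3.11.15. The ligands and the 6 lists were chosen with earlier results of these data known, so their counts are no independent support and no set test was run. Named genes were all 10 ligands; in each list up to 4 called genes by adjusted p and the gene with the largest difference; and the 5 genes nearest to PDCD1LG2 and to CD274. Of the called list genes, 1 is counted but not reported here by name. Neighbours on chromosome 9 were added after values were seen. The 3′ UTR sequences are those of GENCODE 29 transcripts on GRCh38, matched by RefSeq identifier for 11693 transcripts (90.2%). Where several matched 1 identifier, the one with the longest 3′ UTR was taken. Alternatives were other centring, gene summaries, variance models, rate limits, blocks and leaving out each series.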

Additional observations from a re-analysis of the deposited data

Results flagged for a closer look

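A single series stood far from the other 3 of its line (a gap above Dixon's 95% critical value) in 7 of 74 groups of 4 checked; chance gives about 1 in 20, or 3.7. In MDA-LM2 cells these were PVR transcript NM_006505 in series 1_2, at 2.65, and B2M in series 1_2, at 0.0432. In MDA-MB-231 cells they were CD276 in series 1_2, at -0.274, NECTIN2 transcript NM_001042724 in series 1_2, at 2.85, and NECTIN2 transcript NM_002856 in series 2_2, at 2.07. CD55 transcript NM_001114752 stood apart in MDA-MB-231 series 2_1, at 0.119, and CD24 in MDA-MB-231 series 1_1, at 0.172. For CD276 the value apart is the lowest of all 8 series, on the same side as the other MDA-MB-231 rates.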

How the results depend on the processing

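The rate difference kept its direction under every alternative run for 8 of the 9 ligand genes. The exception was NECTIN2, whose difference of 0.93 became -0.00359 with rates limited to -1 to 1 and -0.106 without MDA-LM2 series 2_2. For PDCD1LG2, CD274, CD276 and PVR the groups did not overlap, so leaving out a series or limiting rates could not have reversed the direction. A kept direction under those alternatives is therefore no support for these genes. The split by second number was not among the alternatives. Over series ending in 1 alone, the directions of CD55 (-0.00371), CD59 (0.00345) and NECTIN2 (-0.00718) were not kept. The size of the difference moved by more than the spread between series for PDCD1LG2 (0.688), CD274 (-0.394) and CD59 (-0.459) with rates limited to -1 to 1, and for PVR (-2.12) with the mean over transcripts. The 726 genes called slower in MDA-LM2 cells became 345 with series of 1 line sharing a second number as a block with an estimated correlation (0.457), and 406 to 1007 when 1 series was left out. The 217 called faster became 434 with each series centred, 118 with the unequal-variance test, 36 with the estimated correlation and 84 to 283 when 1 series was left out. The 1 ligand called slower became 0 with robust variance, the unequal-variance test, genes in range only, the estimated correlation or the fit on transcripts, and 0 to 1 when 1 series was left out. The 2 called faster became 1 with genes in range only or the estimated correlation, and 1 to 2 when 1 series was left out. Keeping only genes in range removed PVR and PDCD1LG2 before the fit, so that alternative does not test them. Of the list genes, the 8 called slower became 3 with the estimated correlation and 4 to 10 when 1 series was left out, and the 1 called faster became 0 with robust variance, limited rates or the estimated correlation, and 0 to 2 when 1 series was left out.

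Over genes with all rates within 1 of 0, the correlation of deviations between same-numbered series of the 2 lines ran from -0.0374 to -0.00793. Rates beyond 1 were left out of it, and whether such series shared a preparation is not stated and cannot be told from it. With the replicate number as a block, 250 genes were called slower and 27 faster, 0 ligands slower and 1 faster, and 2 list genes slower and 0 faster.

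Each line has 4 series and 1 set of tables, and the depth behind a rate is unknown, so a very high rate cannot be given a counting error. Rates are per transcript, and isoforms share reads.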
